A study of Arabidopsis thaliana with 18 samples.

Results

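The Fe response of ubc13A roots was taken from 6 of the 18 arrays in the series, 3 of roots grown with Fe and 3 of roots grown without it. Both groups carry the genotype that the labels write as ubc13-/- in the Col-0 strain of Arabidopsis thaliana, so the mutation itself is common to treatment and control. Seedlings were moved at 10 days of age onto ES medium, either complete or made up without FeEDTA, an iron chelate, and roots were frozen 3 days later. The labels call the arrays of a group biological replicates, and they do not describe the ubc13A allele or say how many plants went into a sample. The response was the ubc13A value without Fe minus the ubc13A value with Fe, on the scale log2(signal + 16), for all 22746 probe sets of the ATH1 array other than 64 controls. Where the response was compared, the same difference was used from Col-0 wild type and from CsUBC13-OE, a Col-0 line labelled as overexpressing the cucumber gene CsUBC13, each with 3 arrays at either supply. The promoter of that transgene and the number of lines are not given in the sources used here.

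Arabidopsis roots that run short of iron acidify the soil, reduce ferric iron at the root surface and import the ferrous ion. They also secrete coumarins, phenolic compounds made from feruloyl-CoA that mobilise iron from poorly soluble sources. Basic helix-loop-helix (bHLH) transcription factors switch these genes on, IMA peptides promote the response, and the hemerythrin-domain ubiquitin ligases BTS, BTSL1 and BTSL2 restrain it. UBC13A encodes a ubiquitin-conjugating enzyme that builds chains linked through lysine 63 of ubiquitin, and UBC13 has been studied for its part in root hair branching when iron is low.

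The gene targeted by the mutation could not be read on its own. The probe set 264303_s_at is shared by UBC35, which is UBC13A, and its close relative UBC36. Its signal on the 3 ubc13A arrays with Fe was 3428, 2691 and 2517, and without Fe it was 2477, 3076 and 2621. The groups overlap, and the log2 change was -0.07 (SE 0.15, limma's adjusted p = 0.867). Where its probes lie relative to the mutation is not given, so it is no check of the genotype.

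The 6 arrays were alike in brightness and separated by iron supply. Their medians ran from 191 to 211 signal units, and the first principal component, with 36.9% of the variance, placed the arrays with Fe between -33.5 and -24.6 and those without between 29.6 and 30.9. Correlations of the log2 values were 0.976 to 0.982 within a group and 0.968 to 0.973 between the groups. The number of arrays limits the precision, and the median standard error of a probe set's log2 change was 0.18.

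A small part of the probe sets passed the test for a change without Fe in ubc13A roots, and the strongest changes were increases. A probe set was called where limma's Benjamini-Hochberg adjusted p over all 22746 probe sets was under 0.05. This held for 847 probe sets, 3.72% of those tested, with 476 higher (2.09%) and 371 lower (1.63%) without Fe. Of these, 326 changed at least 2-fold and 69 at least 4-fold. The 32 that changed at least 8-fold all rose, and 14 of them rose at least 16-fold. The median log2 change was 0.96 among the higher and -0.76 among the lower calls, beside -0.04 over all probe sets. Values of the ubc13A groups did not overlap for 843 of the 847 called probe sets and for 21.8% of all probe sets. With the 6 values of a probe set in random order, 10% would not overlap. At limma's unadjusted p under 0.05 there were 3797 of the 22746 probe sets. With no change in any probe set, a share of 0.05 of the 22746 would reach that level, which is fewer than were found. Probe sets that were not called are therefore not shown to be unchanged.

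Of the 847, 420 concern a probe set naming 1 gene. Increases made up 56.2% of the calls on the deposited scale and 68.6% (576 higher, 264 lower) after each array was centred on its median. In 82 of the 847 the dimmer group had a mean signal under 32, where the pseudocount of 16 sets the size of the change in part, and no detection calls were used.

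**Figure D1:**
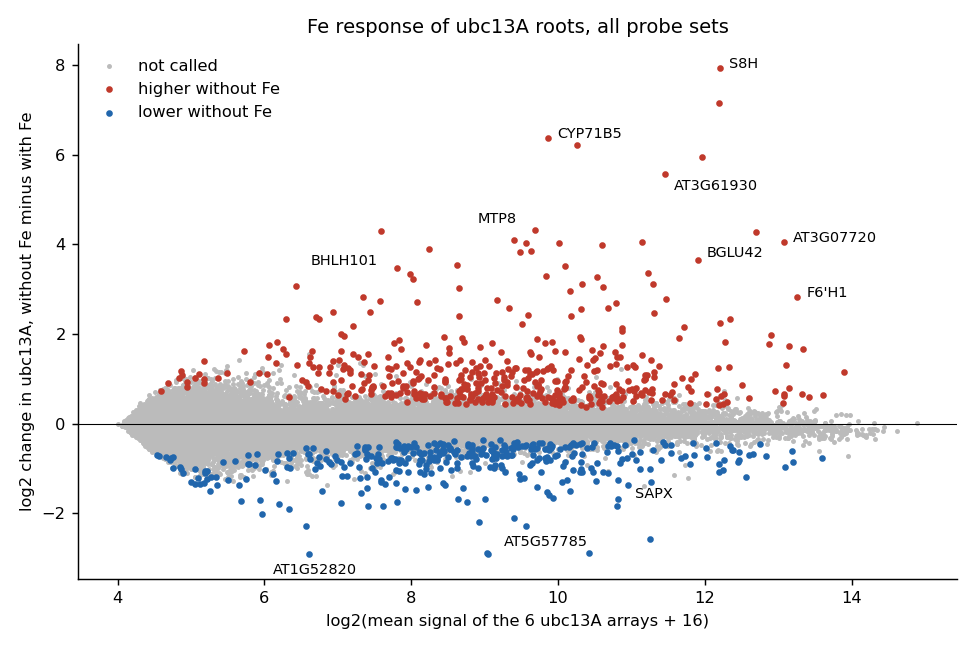
Each point is 1 of 22746 probe sets, plotted by the log2 of its mean signal plus 16 over the 6 ubc13A arrays (horizontal) and its log2 change without Fe minus with Fe (vertical). Red points are the 476 called higher, blue points the 371 called lower, and the red points reach 7.93 (S8H) while the blue ones go no lower than -2.92.

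The coumarin genes that could be read rose in ubc13A roots. Of 12 genes written for coumarin synthesis and export, 4 could be read from their own probe set, and all 4 rose, with a median log2 change of 3.24. Over the 13350 named genes measured, 3.12% were called, 1.75% higher and 1.38% lower, and the median was -0.04. The 4 genes rose by very different amounts, from 1.08 to 7.93 on the log2 scale.

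F6'H1 (AT3G13610), the feruloyl-CoA hydroxylase at the start of the pathway, gave signals of 2139, 3198 and 1956 with Fe and 19365, 16801 and 15283 without Fe. Every array without Fe was several times brighter than every array with Fe, and the log2 change was 2.84 (SE 0.23, adjusted p = 1.44e-06). COSY (AT1G28680), coumarin synthase, which closes the coumarin ring, gave 1703, 1553 and 1198 with Fe and 3439, 3180 and 2791 without. It was the coumarin gene that changed least (1.08, SE 0.13, adjusted p = 0.000136), with no overlap between the groups. S8H (AT3G12900), scopoletin 8-hydroxylase, which turns scopoletin into fraxetin, gave 27.3, 24.7 and 16.1 with Fe and 9002, 10219 and 8843 without. It went from near the bottom of the array's range to among its bright genes, and its log2 change of 7.93 (SE 0.28, adjusted p = 2.5e-10) was the greatest of any probe set in ubc13A. BGLU42, a beta-glucosidase that releases coumarins from their glucosides, gave 619, 519 and 521 with Fe and 7971, 6904 and 6403 without, a log2 change of 3.64 (SE 0.15, adjusted p = 7.97e-10).

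Among the iron regulators some genes rose, and 5 bHLH factors did not pass the test. Of 19 regulators written, 10 were measured, 5 rose and none fell, and the median log2 change of the 10 was 0.84. Among all named genes 1.75% were called higher and 1.38% lower. The iron and coumarin lists were written with earlier results of these data known. The members that rose were BHLH101, IMA1, BTSL1, BTSL2 and PYE. Their increases ran from 1.33 to 3.47 on the log2 scale.

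BHLH101, an Ib bHLH factor that acts with the master regulator FIT, gave 4.4, 28.0 and 36.7 with Fe and 521, 363 and 298 without. The lowest array without Fe stood far above the highest with Fe, and the log2 change was 3.47 (SE 0.42, adjusted p = 9.96e-05), its size set in part by the pseudocount. IMA1 (AT1G47400), which encodes a small peptide that promotes iron uptake, gave 186, 212 and 377 with Fe and 1842, 2512 and 2476 without, a log2 change of 3.11 (SE 0.26, adjusted p = 1.6e-06). PYE, a bHLH factor of the vascular pericycle that represses part of the iron response, rose from 140, 233 and 206 to 513, 453 and 541 (1.33, SE 0.18, adjusted p = 0.000273). None of the 3 had overlapping groups.

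BTSL1 and BTSL2, ubiquitin ligases that restrain the response, both rose, and BTS was not analysed here. BTSL1 (AT1G74770) gave 601, 846 and 855 with Fe and 4109, 4357 and 4342 without (log2 change 2.47, SE 0.15, adjusted p = 6.59e-08). BTSL2 (AT1G18910) gave 734, 684 and 618 with Fe and 3037, 2994 and 3065 without (2.14, SE 0.17, adjusted p = 1.06e-06). The spread among the arrays without Fe was small for both genes.

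The IVc bHLH factors, which stand upstream of BHLH101 and PYE, differed little between the supplies. ILR3 gave 1447, 1407 and 1468 with Fe and 1797, 1914 and 1773 without, groups that do not overlap, but its log2 change of 0.34 (SE 0.10) missed the threshold (adjusted p = 0.0656). bHLH115 had the same change, 0.34 (SE 0.10, adjusted p = 0.0658), from 1717, 1895 and 1887 to 2535, 2270 and 2194. ILR3 passed the test in 5 of the alternative fits and bHLH115 in 3. bHLH104 stood at 0.09 (SE 0.15), bHLH34 at 0.07 (SE 0.18) and bHLH121, a partner of the IVc factors, at 0.14 (SE 0.19), and none of these passed the test. The plot of iron and coumarin genes by array shows the 5 regulators that rose as widely separated groups of points and these 5 as groups close together or overlapping.

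**Figure D2:**
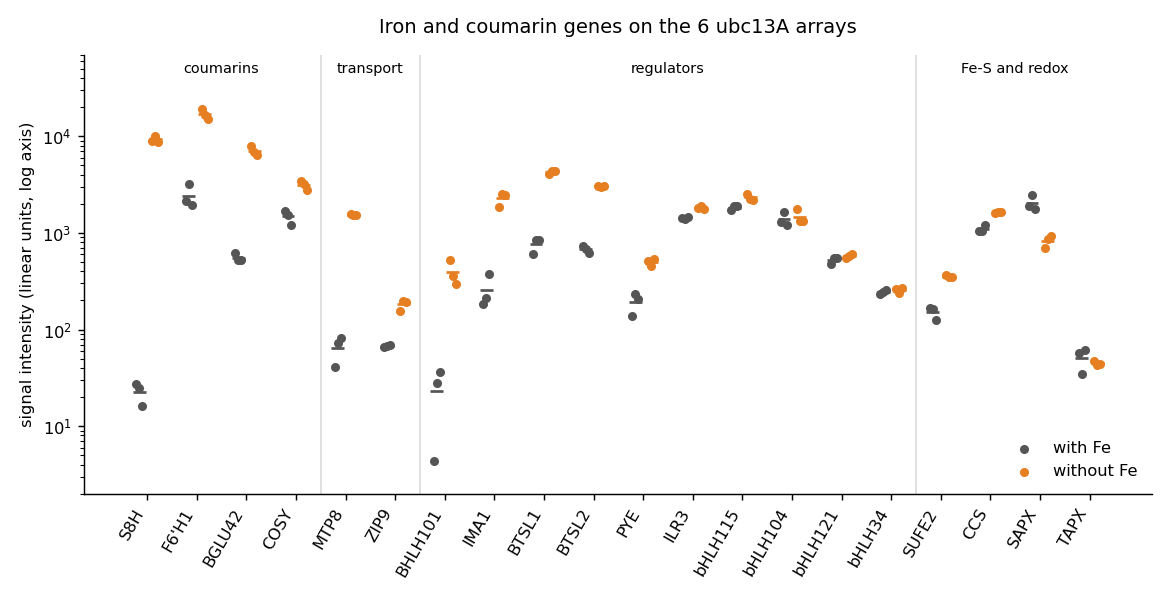
Signal intensity in linear units on a log axis for every measured gene of the coumarin, transport, regulator and Fe-S and redox lists, with 1 point per ubc13A array (grey with Fe, orange without) and a bar at each group mean. The colours are widely apart for S8H, BHLH101 and MTP8, close for ILR3, bHLH115 and CCS, mixed for bHLH104 and TAPX, and in the opposite order for SAPX.

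Of 30 genes written for iron uptake and metal transport, 2 could be read on their own, and both rose. Among all named genes 1.75% were called higher and 1.38% lower. MTP8 (AT3G58060), which moves manganese and iron into the vacuole, gave 40.7, 72.0 and 81.4 with Fe and 1577, 1533 and 1543 without. The 3 arrays without Fe were nearly equal, and the log2 change was 4.32 (SE 0.21, adjusted p = 3.55e-09). ZIP9, a member of the ZIP family of metal transporters, gave 65.6, 67.7 and 68.6 with Fe and 156, 199 and 192 without (1.24, SE 0.18, adjusted p = 0.000724). Its level stayed low at both supplies, although the groups do not overlap. The reductase FRO2, the transporter IRT1, FIT and the ferritin FER1 lacked a probe set naming them alone and were not analysed here.

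Genes of iron-sulfur clusters and redox enzymes moved in both directions. Of 16 written, 4 were measured, 2 rose and 1 fell, beside 1.75% of named genes called higher and 1.38% called lower. SUFE2, which activates the cysteine desulfurase of plastid iron-sulfur cluster assembly, gave 167, 162 and 125 with Fe and 368, 346 and 347 without (log2 change 1.16, SE 0.24, adjusted p = 0.011, or 0.0535 without replicate 3 with Fe). CCS, the copper chaperone of superoxide dismutase, gave 1039, 1047 and 1199 with Fe and 1620, 1659 and 1642 without, a tight and small rise of 0.58 (SE 0.14, adjusted p = 0.0238). The call of CCS ended without any 1 of 5 ubc13A arrays (all but replicate 3 with Fe), where the adjusted p reached 0.0887. SAPX, the stromal ascorbate peroxidase, a heme enzyme, gave 1924, 2468 and 1778 with Fe and 704, 866 and 921 without. Every array with Fe was brighter than every array without, and the change was -1.29 (SE 0.26, adjusted p = 0.00848). Its thylakoid relative TAPX was dim, from 35 to 61.9 with Fe and from 42.8 to 47.4 without, and stood at -0.13 (SE 0.44, adjusted p = 0.925).

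Beyond these lists, the greatest increases fell on genes of diverse or unknown roles. CYP71B5, a cytochrome P450, gave 3.7, 0.6 and 16.6 with Fe and 1773, 1843 and 1851 without, near the floor on one side and within a narrow band on the other. Its log2 change was 6.38 (SE 0.28, adjusted p = 1.44e-09), and the pseudocount sets part of that size. AT3G61930, a gene with no role given here, rose from 105, 129 and 72.1 to 6071, 5074 and 5352 (5.57, SE 0.17, adjusted p = 5.75e-11). AT3G07720, which encodes a kelch repeat protein, was already bright with Fe at 921, 1232 and 777 and became one of the brightest probe sets without Fe at 17452, 15788 and 15407 (4.06, SE 0.18, adjusted p = 1.21e-09).

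The rest of the 15 greatest increases lay between 3.24 and 4.04 on the log2 scale, apart from BHLH101, BGLU42, MTP8, S8H and IMA1 above. AT5G38820, a member of an amino acid transporter family, rose from 103 ± 12.1 to 1931 ± 116 (SD, n = 3), or by 4.04 in log2 units (SE 0.16). ATPMEPCRB, a pectin methylesterase of the cell wall, rose from 260 ± 13 to 2661 ± 167 (3.27, SE 0.20). FOLB1, a dihydroneopterin aldolase of folate synthesis, rose from 34.4 ± 9.4 to 456 ± 51.6 (3.24, SE 0.27). AT1G73120 (3.99), AT4G19370 (3.54), AT1G49000 (3.33) and AT4G33666 (3.29) made up the rest, and their adjusted p-values in limma were at most 6.96e-06. All 15 calls held when any 1 of the 18 arrays was left out.

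Decreases were smaller. AT1G52820, of the 2-oxoglutarate-dependent dioxygenase family, gave 178, 157 and 134 with Fe and 6.0, 4.8 and 10.6 without. It was the named gene that fell most (log2 change -2.90, SE 0.42, adjusted p = 0.000583), and its signal without Fe was so low that the pseudocount limits that size. AT1G52800, of the same family, fell from 27.9, 45.9 and 47.5 to 3.3, 5.7 and 2.4 (-1.49, SE 0.32, adjusted p = 0.0145), a size with the same limit. AT1G52800 lost its call without replicate 2 or 3 with Fe or replicate 1 or 3 without Fe, where the adjusted p reached 0.0606.

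Several brighter genes also fell. PDF2.1, a plant defensin, gave 1517, 1427 and 1422 with Fe and 604, 435 and 356 without (log2 change -1.65, SE 0.22, adjusted p = 0.000343). AT5G57785, with no role given here, gave 1289, 1106 and 1317 with Fe and 256, 222 and 251 without (-2.27, SE 0.27, adjusted p = 0.000104). For both genes the groups lie far apart beside their own spread. The genes that fell most were taken only from called probe sets whose ubc13A groups do not overlap. The separation of the groups was thus a condition of the choice and is no further evidence of a change. The peroxidase gene AT3G49960 gave 1424, 1484 and 727 with Fe and 471, 442 and 368 without (-1.41, SE 0.21, adjusted p = 0.00089, or 0.0771 with the 6 ubc13A arrays fitted alone), with 1 array with Fe well below the others. AT3G45710, of the NPF family of nitrate and peptide transporters, gave 1497, 1252 and 1275 with Fe and 521, 533 and 345 without (-1.51, SE 0.39, adjusted p = 0.041). Its call ended when any of the 6 ubc13A arrays, Col-0 replicate 2 with Fe, CsUBC13-OE replicate 1 with Fe or CsUBC13-OE replicate 3 without Fe was left out, with an adjusted p of up to 0.149.

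The other genes among the 15 greatest decreases were AT4G04990 and AT5G22390, AT2G34610, AT5G01740, AT2G41810 and AT1G70880, the GRAS family gene AT3G13840, the cytochrome P450 gene CYP71B26, and AT1G68650. Their changes ran from -2.27 (AT4G04990) to -1.44 (AT1G68650). With the 6 ubc13A arrays fitted alone AT4G04990 missed the threshold (adjusted p = 0.0549). AT1G70880 was dim, with 69.0, 64 and 53.7 with Fe and 7.6, 13.3 and 3.3 without (-1.72, SE 0.41, adjusted p = 0.0265). Leaving out any 1 ubc13A array other than replicate 2 without Fe ended its call, with an adjusted p of up to 0.103. Of the 15 decreases, 12 kept their call whichever 1 of the 18 arrays was left out, and AT1G52800, AT3G45710 and AT1G70880 did not.

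**Figure D3:**
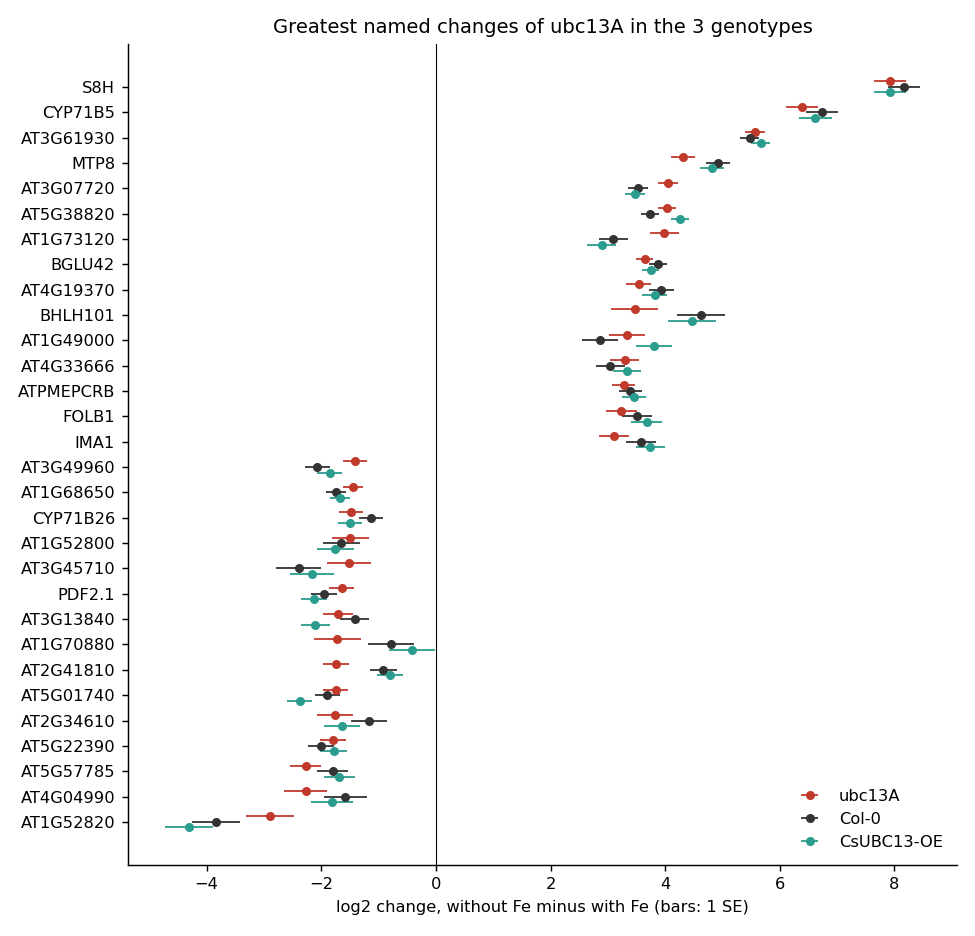
Log2 change without Fe minus with Fe (horizontal, bars of 1 SE from limma) for the 15 named genes that rose most and the 15 that fell most in ubc13A, with the change of the same gene in Col-0 and CsUBC13-OE. The genes were chosen on the ubc13A values, and the 3 genotypes lie on the same side of 0 for all 30, with AT1G70880 nearest to 0 in CsUBC13-OE (-0.42).

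Most members of the gene families were not called, and some called members moved far. Of 26 genes matched by cytochrome P450 symbols, most of them CYP71B genes, 2 rose and 2 fell and the median was -0.08. Over all named genes 1.75% were called higher and 1.38% lower. The 26 include CYP59 and CYP71, symbols used for cyclophilins rather than cytochrome P450 enzymes, and neither was called. CYP71B26 fell from 377 ± 27.2 to 125 ± 5.9 (SD, n = 3), which is -1.47 in log2 units (SE 0.21, adjusted p = 0.000491). CYP71B23 fell by 0.87 (SE 0.18, adjusted p = 0.0113, or 0.0632 without replicate 1 lacking Fe). CYP71B27 was dim, at 3.9, 16.6 and 7.4 with Fe and 26.6, 27.0 and 39.9 without (0.92, SE 0.22, adjusted p = 0.0296), and its call ended without any 1 of 5 ubc13A arrays (all but replicate 2 with Fe), with an adjusted p of up to 0.128.

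Among 47 UDP-glycosyltransferase genes, whose enzymes attach sugars to small molecules, 3 rose, none fell and the median was -0.07. Of all named genes 1.75% were called higher and 1.38% lower. UGT72E1, which glucosylates lignin precursors, rose from 1239, 1369 and 1052 to 5143, 6035 and 5301 (log2 change 2.16, SE 0.17, adjusted p = 1.17e-06). UGT73D1 rose from 90.3, 44.3 and 77.9 to 263, 252 and 193 (1.57, SE 0.25, adjusted p = 0.00147). Neither pair of groups overlaps. UGT71C3 rose by 0.60 (SE 0.13, adjusted p = 0.0116, or up to 0.0523 without replicate 2 with Fe or replicate 3 without Fe). With the 6 ubc13A arrays fitted alone its adjusted p was 0.0771.

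Of 29 serine carboxypeptidase-like genes, 1 rose and 2 fell, with a median of -0.10, beside 1.75% of named genes called higher and 1.38% called lower. scpl20 rose from 388 ± 61.3 to 1164 ± 161 (SD, n = 3), which is 1.55 in log2 units (SE 0.13, adjusted p = 1.61e-06). scpl35 fell by 0.71 (SE 0.15, adjusted p = 0.0107) and scpl31 by 0.69 (SE 0.18, adjusted p = 0.0405). For scpl35 the adjusted p was 0.0596 without replicate 1 lacking Fe and 0.138 with the 6 ubc13A arrays fitted alone. The call of scpl31 was lost in 9 of the 18 fits that left out an array (all ubc13A arrays but replicate 1 without Fe, all 3 Col-0 arrays with Fe, and Col-0 replicate 1 without Fe), with an adjusted p of up to 0.156, and also after centring on the median.

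Some sugar and auxin genes were called, beside 3.12% of all named genes. Of 15 genes matched by sugar transporter symbols, the vacuolar transporter gene SWEET17 rose by 0.61 (SE 0.13, adjusted p = 0.0138). SWEET2, another vacuolar transporter gene, fell by 0.85 (SE 0.20, adjusted p = 0.0248). The median of the 15 was 0.17, and they include SWEETIE, which is not a SWEET transporter and was not called. SWEET17 lost its call without replicate 1 or 3 with Fe or replicate 2 without Fe (adjusted p up to 0.0781), and SWEET2 without replicate 1 or 2 with Fe or replicate 2 or 3 without Fe (up to 0.0965). With the 6 ubc13A arrays fitted alone both calls ended too (adjusted p = 0.126 for SWEET17 and 0.207 for SWEET2). Of 13 auxin genes, GH3.3, which conjugates auxin to amino acids, rose from 63.3 ± 4.0 to 173 ± 45.1 (SD, n = 3), which is 1.22 in log2 units (SE 0.30, adjusted p = 0.034). GH3.3 lost its call without any 1 of the ubc13A arrays other than replicate 3 lacking Fe, with an adjusted p of up to 0.136.

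None of the 12 measured ubiquitin-conjugating enzyme genes, the family of UBC13A, was called. Over all named genes 3.12% were called, so sets as small as those in this paragraph would often hold no call. Their log2 changes ran from -0.46 to 0.34 with a median of -0.02. The 13 glutathione transferase genes had a median of 0.00, the 27 expansin and xyloglucan endotransglucosylase genes, which loosen cell walls, one of -0.07, and the 6 WRKY factors one of 0.03, and none of their members was called on the deposited scale. The 5 measured cell cycle genes lay between -0.16 and 0.03. The 6 genes matched by class III peroxidase symbols had a median of 0.08, and none was called. They do not include the peroxidase genes named singly elsewhere in the text.

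**Figure D4:**
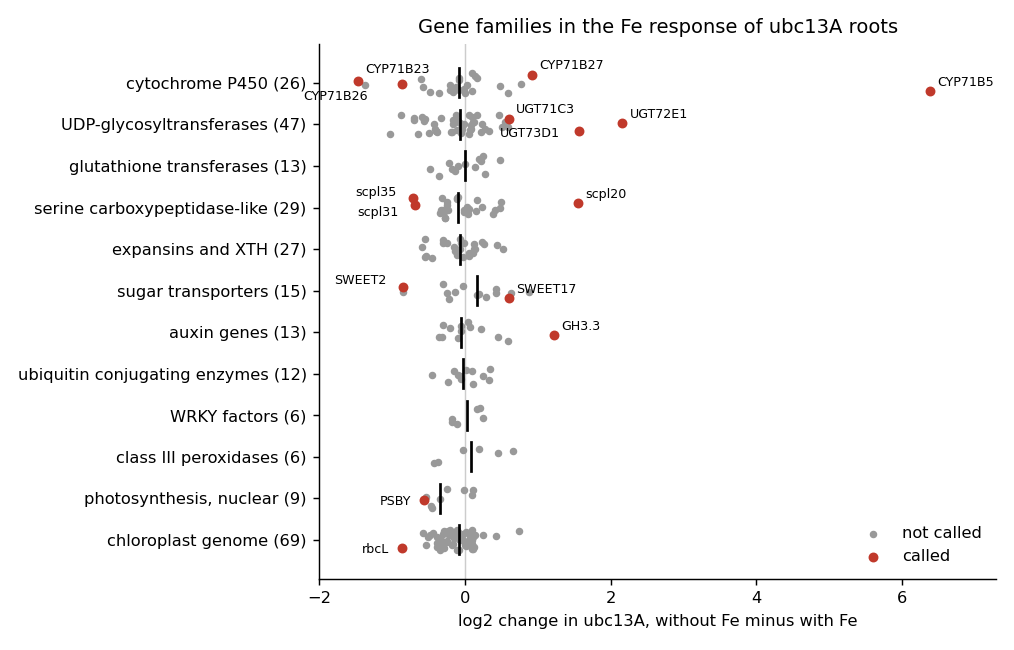
Each point is 1 measured gene, plotted by its log2 change in ubc13A (horizontal), in 12 families with the number of measured genes in brackets and a black bar at the family median. The cytochrome P450 row includes CYP59 and CYP71 and the sugar transporter row SWEETIE, which were matched by name alone. The called members, in red and named, number 15, and the medians of all families lie within 0.35 of 0.

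Markers of the tissue were read beside these results. Of 10 root cell type markers 2 were measured, and both were bright, PYK10, a beta-glucosidase of root endoplasmic reticulum bodies, at 22636, 19926 and 19474 with Fe and 16955, 17227 and 16165 without, and AT5G10130 between 1949 and 2597. Neither was called (PYK10 -0.30, SE 0.11, adjusted p = 0.158), although PYK10 was lower on every array without Fe. The summed signal of 5 measured green tissue markers (of 18 written), LHCB4.1, LHCB4.2, RCA, PSAE-1 and PRK, was 2597, 3544 and 3679 with Fe and 2096, 2714 and 2947 without, and none of the 5 was called. No seed or flower marker of 9 could be read. With 3.12% of all named genes called, marker sets this small would often hold no call. Transcripts of the green tissue list were present at both supplies. In roots analysed in bulk, fewer cells of a type and less RNA per cell cannot be told apart.

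Of 9 nuclear photosynthesis genes PSBY, a photosystem II subunit, fell from 558 ± 46.7 to 374 ± 29.8 (SD, n = 3), which is -0.56 in log2 units (SE 0.12, adjusted p = 0.015), and the median was -0.35. PSBY lost its call without replicate 1 or 3 with Fe or replicate 1 without Fe (adjusted p up to 0.0736), and with the 6 ubc13A arrays fitted alone (0.108). Of 69 chloroplast genome genes the median was -0.08 and 1 fell, a share near the 1.38% of all named genes called lower. It was rbcL, the large subunit of Rubisco, from 1488, 1606 and 1117 to 863, 726 and 688 (-0.86, SE 0.15, adjusted p = 0.00232, or 0.0786 with the 6 ubc13A arrays fitted alone). The part that the green tissue level played in these decreases was not tested.

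Root hair and anthocyanin genes gave no call on all 18 arrays, beside 3.12% of all named genes called, and few of them were measured. Of 12 root hair genes 3 were measured, EXPA7, the expansin of hair cells (0.44, SE 0.22), EXPA18 (-0.29, SE 0.20) and XTH26 (-0.54, SE 0.35). Of 11 flavonoid genes 3 were measured, and dihydroflavonol reductase DFR gave 40, 51.5 and 90.0 with Fe and 4.5, 9.0 and 54.0 without. Its groups overlap, and the change of -1.16 (SE 0.52) did not pass the test (adjusted p = 0.273). AT5MAT, an anthocyanin malonyltransferase, gave 44.9, 16 and 55.4 with Fe and 11.2, 7.4 and 12.3 without, groups that do not overlap. Its change of -0.98 (SE 0.31, adjusted p = 0.0988) passed in 1 alternative fit, without replicate 2 with Fe, where the adjusted p was 0.0187. UF3GT, an anthocyanin glycosyltransferase, stood at -0.13 (SE 0.30). The hypoxia-responsive gene AT4G10270 stood at 0.27 (SE 0.24, adjusted p = 0.639).

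The ubc13A response was then set beside the responses of the other genotypes, whose arrays it does not share, although all 18 arrays share the estimate of the spread. Probe sets called the same way in both Col-0 and CsUBC13-OE were chosen without the ubc13A log2 changes. The ubc13A arrays still enter the spread behind those calls, so the choice is not fully independent of them. Of 405 called higher in both, 327 (80.7%) were called higher in ubc13A and 403 had the same sign. Of 290 called lower in both, 162 (55.9%) were called lower in ubc13A and 286 had the same sign, and none of the 695 was called in the opposite direction. The corresponding shares were 94.2% and 86.2% for Col-0, tested on the probe sets called in ubc13A and CsUBC13-OE, and 92.9% and 85.7% for CsUBC13-OE. These sets differ, and the differences between the shares were not tested. The share of all probe sets with the same sign is not given here. Over all probe sets, 3.72% were called in ubc13A, 4.26% in Col-0 (2.21% higher, 2.05% lower) and 4.33% in CsUBC13-OE (2.22% higher, 2.11% lower).

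The median change of the 405 was 0.97 in ubc13A, beside 1.10 in Col-0 and 1.14 in CsUBC13-OE, and that of the 290 was -0.66 beside -0.94 and -0.93. The log2 changes in Col-0 and CsUBC13-OE chose these probe sets and those in ubc13A did not, so the medians are not on an equal footing.

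**Figure D5:**
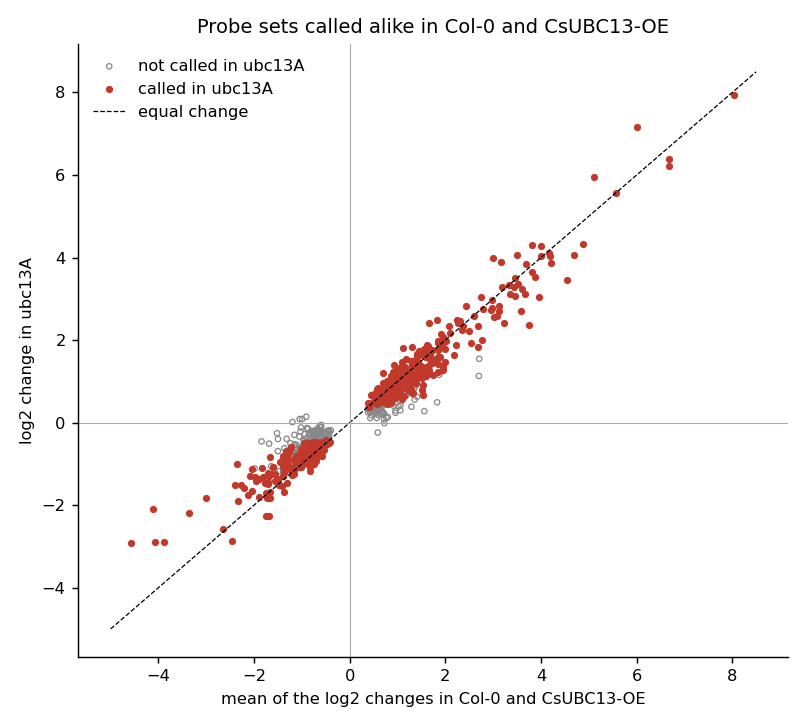
Each point is 1 of the 695 probe sets called the same way in Col-0 and CsUBC13-OE, plotted by the mean of those log2 changes (horizontal) and the log2 change in ubc13A (vertical), with a dashed line of equal change. Of the 405 on the right 403 lie above 0, and of the 290 on the left 286 lie below 0, with open points for the 206 not called in ubc13A.

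No difference in Fe response between ubc13A and another genotype passed the test of the difference itself. Against Col-0 limma called 0 probe sets (0.0%), with 1254 at an unadjusted p under 0.05 and a smallest adjusted p of 0.161. Against CsUBC13-OE it called 0 (0.0%), with 1162 at an unadjusted p under 0.05 and a smallest adjusted p of 0.0523. With no difference in any probe set, a share of 0.05 of the 22746 would still reach that unadjusted p, so these counts are not read as differences. The median standard error of such a difference was 0.26. Across the alternative settings the first comparison gave up to 3 calls and the second up to 2.

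Single genes show the width of these comparisons. SAPX changed by -1.29 in ubc13A, -2.14 in Col-0 and -2.04 in CsUBC13-OE, and its difference from Col-0 was 0.85 (SE 0.36, adjusted p = 0.888). BHLH101 changed by 3.47, 4.63 and 4.46, a difference from Col-0 of -1.16 (SE 0.59, adjusted p = 0.894). MTP8 changed by 4.32, 4.92 and 4.82, a difference of -0.60 (SE 0.29, adjusted p = 0.888). AT1G73120 changed by 3.99, 3.10 and 2.89, a difference of 0.89 (SE 0.35, adjusted p = 0.888). None of these differences passed the test, and with such errors that does not show that the genotypes respond alike.

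The named genes with the smallest unadjusted p for a difference were mostly dim. KELP, a transcriptional coactivator, was the bright one against Col-0, with 455, 434 and 392.4 with Fe and 596, 640 and 732 without in ubc13A. It rose by 0.60 in ubc13A (SE 0.11, adjusted p = 0.00437, or 0.0972 with the 6 ubc13A arrays fitted alone) and stood at -0.41 in Col-0, a difference of 1.01 (SE 0.16, adjusted p = 0.161). AT3G20760, AT1G09360, AT1G23690 and AT3G59340 had group means under 40 in ubc13A, and their differences from Col-0 ran from -2.17 to -0.79. Against CsUBC13-OE the first was AT2G06140, whose ubc13A signals were at most 7.6 (difference 1.15, SE 0.18, adjusted p = 0.076), followed by AT3G20760 and AT1G31030.

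A pair of peroxidase genes stood among the 5 named genes against CsUBC13-OE. AT4G30170 gave 4122, 4367 and 3617 with Fe and 4144, 2927 and 2886 without in ubc13A. Its groups overlap, with a log2 change of -0.30 (SE 0.14, adjusted p = 0.32), while it fell by 1.22 in CsUBC13-OE and by 1.10 in Col-0. The difference from CsUBC13-OE was 0.92 (SE 0.20, adjusted p = 0.725). AT4G11290 stood at 0.21 in ubc13A, -0.58 in CsUBC13-OE and -0.35 in Col-0, a difference from CsUBC13-OE of 0.79 (SE 0.18, adjusted p = 0.725).

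Of the 847 probe sets called in ubc13A, 257 were called in neither other genotype, 101 higher and 156 lower. The sign was the same in both others for 782 of the 847, and the share with the same sign over all probe sets is not given here. The named genes with the greatest increases among the 257 were AT2G34990, AT5G41680, AT1G14200 and AT2G11360. AT1G14200, the brightest of these, rose from 173, 278 and 263 to 515, 720 and 690 (1.38, SE 0.19, adjusted p = 0.000343) and stood at 0.66 in both other genotypes with adjusted p-values of 0.0706 in Col-0 and 0.0686 in CsUBC13-OE. AT5G41680, dimmer, went from 39.7, 8.6 and 13.3 to 91.9, 86.1 and 62.9 (1.48, SE 0.25, adjusted p = 0.00231, or 0.0886 with the 6 ubc13A arrays fitted alone), against 0.01 in Col-0 (difference 1.46, SE 0.35, adjusted p = 0.491). AT2G34990 (1.56, SE 0.40, adjusted p = 0.041) lost its call in 12 of the 18 leave-one-out fits (adjusted p up to 0.164), namely those without any 1 Col-0 array, CsUBC13-OE replicate 2 without Fe or any 1 ubc13A array but replicate 2 with Fe. AT2G11360, whose signals with Fe were at most 2.9 (1.18, SE 0.25, adjusted p = 0.0116), lost its call without replicate 2 lacking Fe (0.062).

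The named genes with the greatest decreases among the 257 were AT1G70880, described above, AT5G54700, AT5G42290 and AT5G66150, all of them dim. AT5G66150 gave 14.3, 34.7 and 41.1 with Fe and 2.4, 1.5 and 2.1 without (-1.30, SE 0.20, adjusted p = 0.00112, or 0.0578 with the 6 ubc13A arrays fitted alone), against -0.34 in Col-0 (difference -0.96, SE 0.29, adjusted p = 0.73). AT5G42290 gave 34.2, 31.0 and 36.4 with Fe and 2.1, 3.4 and 5.4 without (-1.35, SE 0.34, adjusted p = 0.0398). Its call ended without any 1 ubc13A array, Col-0 replicate 3 without Fe or CsUBC13-OE replicate 1 without Fe, with an adjusted p of up to 0.121. AT5G54700 (-1.36, SE 0.33, adjusted p = 0.0286) lost its call without replicate 1 or 2 with Fe or replicate 1 or 3 without Fe (up to 0.125). The pseudocount sets the size of these changes in part. A call in ubc13A alone does not show that the responses differ.

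The reverse case, called in both other genotypes and not in ubc13A, was led by AT3G02480, AT2G04050, AT1G06540 and AT3G58000. AT3G02480 gave 33.3, 55.5 and 2.8 with Fe and 97.2, 44.6 and 85.3 without in ubc13A, with overlapping groups (1.13, SE 0.48, adjusted p = 0.243), and rose by 2.42 in Col-0 and 2.98 in CsUBC13-OE. AT3G58000 stood at 0.01 in ubc13A and fell by 1.16 and 1.23 in the others. The differences from Col-0 were -1.29 (SE 0.68) and 1.17 (SE 0.42), with adjusted p-values of 0.9 and 0.851.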

How the data were processed

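Root RNA was hybridised to 18 single-colour Affymetrix ATH1 arrays. What the authors deposited is a table of linear signal intensity. No source used here names the software that summarised the probes. The arrays' trimmed means (2% off either end) ran from 495 to 496, and no pair had the same sorted values. No scaling or quantile normalization is named by the sources used, and no detection calls were used. All columns were matched to a sample by title. Of 22746 probe sets, 13513 named 1 gene by the platform annotation, 503 several and 8730 none. Names were updated from the RefSeq table of TAIR10.1 (13436 matched by Entrez number), and the array names no build, so no coordinates are given.

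The 6 group means were fitted to log2(signal + 16) in limma 3.58.1 (R 4.3.3), all 18 arrays together (12 residual degrees of freedom), with Benjamini-Hochberg adjustment per contrast. The p-values reflect the spread of these biological replicates. The code was tested on simulated data. Figures and tables were made with matplotlib 3.10.9, pandas 2.3.3 and numpy 2.4.6 under Python 3.11.15.

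The genes named were the 15 that rose and 15 that fell most among called, non-overlapping probe sets of 1 gene, all measured members of the iron and coumarin lists, up to 4 called members of other lists, and the 5 with the smallest p per difference. Genes called in a single genotype or in both others, unnamed and shared probe sets, uncalled markers, and AT1G52790, PUB23, OCT1, CaS, AT2G37130, AT3G43670 and AT5G58330 were added after their values were seen. The brightest probe set stood for a gene. Members and lists were chosen with earlier results of these data known. Families were matched on RefSeq symbols and synonyms, and chloroplast genes by chromosome. Some members are therefore missed (most peroxidases, for instance), and some genes of other families are included (CYP59, CYP71 and SWEETIE). Lists with no measured member (phosphate and sulfate supply, heat, seed and flower, ABC transporters, MYB, ethylene response factors, mitochondrial, ribosomal, aquaporin and jasmonate genes) gave no value. The names S8H, F6'H1, COSY, MTP8, IMA1, BTSL1 and BTSL2 are common names given to the loci.

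Deviations of same-numbered ubc13A arrays from their group means correlated at 0.075, 0.0088 and 0.091, so the replicate numbers were not taken to pair the arrays.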

Additional observations from a re-analysis of the deposited data

How the results depend on the processing

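The 847 calls (476 higher, 371 lower) became 867 with quantile normalization, 840 with median centring, 801 and 1049 with pseudocounts of 1 and 64, 1100 with trended robust moderation, 807 with array weights and 1172 without the dimmest 40% of probe sets, where 570 were lower. They became 419 (268 and 151) with the 6 ubc13A arrays fitted alone and 339 (246 and 93) when tested against a 1.2-fold change. With the replicate block, on the 6 ubc13A arrays alone, 130 were called (105 and 25), and all 130 were among the 847. Increases made up 80.8% of calls under the block and 72.6% in the 1.2-fold test. The numbers 1 to 3 mark no known shared source, and 2 of 3 arrays correlated best with their own number. Leaving out 1 array gave 589 to 982 calls, 360 to 534 higher and 224 to 448 lower, and 429 of the 847 (296 higher, 133 lower) were called in all 18 such fits. No call changed direction in any setting. The causes of these shifts were not tested, except that the smaller fits hold fewer arrays.

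The difference from Col-0 gave 1 call without the dimmest probe sets, 1 with trended robust moderation, 3 with array weights and 0 to 1 when an array was left out. That from CsUBC13-OE gave 2 with quantile normalization, 1 with median centring, 2 with a pseudocount of 1, 1 with array weights and 0 to 1 when an array was left out. The replicate block gave 0 for both.

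Of the 15 greatest increases 14 were called in every setting tried and BHLH101 in all but the block; of the 15 greatest decreases 6 were, and 8 lost their call under the block. PYE, COSY, ZIP9, SAPX and UGT73D1 lost their call under the block and in no other setting. Their adjusted p in limma then ran from 0.055 (ZIP9) to 0.111 (PYE). SUFE2 also lost its call under the block and in the 1.2-fold test. Signs turned for genes near 0 that were called in no setting. With 1 array left out, bHLH104 ran from -0.047 to 0.22, 264303_s_at from -0.16 to 0.060, AT1G06540 from -0.042 to 0.53, AT3G58000 from -0.19 to 0.17, PRK from -0.12 to 0.22, UF3GT from -0.33 to 0.10, AT4G10270 from -0.033 to 0.52 and AT5G10130 from -0.13 to 0.10, and AT5G10130 stood at 0.043 with median centring. Signals under 32 limit the size of changes among dim genes.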

Other observations

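About as many called probe sets named no gene (416) as named 1 (420), and some of these changed as far as the named ones. The probe set 253502_at gave 55.3, 79.3 and 24.7 with Fe and 9432, 9394 and 9011 without Fe in ubc13A, a log2 change of 7.16 (SE 0.36, limma's adjusted p = 6.59e-09), beside 5.69 in Col-0 and 6.33 in CsUBC13-OE. The probe set 262091_at rose from 27.5, 1.0 and 30.6 to 2383, 2366 and 2459 (6.22, SE 0.35). In the other direction, 261448_at fell from 666, 1211 and 884 to 124, 101 and 90.7, a change of -2.92 (SE 0.23) beside -4.52 in Col-0 and -4.61 in CsUBC13-OE. The difference of its response from that of Col-0 was 1.61 (SE 0.33, adjusted p = 0.379). The probe set 251109_at fell from 2535, 2408 and 2282 to 335, 309 and 288 (-2.89, SE 0.29).

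Of the called probe sets, 11 are shared by several genes, and their signal belongs to neither gene alone. The probe set 262655_s_at, shared by AT1G14190 and AT1G14185, rose from 71.3, 92.8 and 68.3 to 1507, 1325 and 1136 (log2 change 3.84, SE 0.19). The probe set 246481_s_at, shared by KIN1 and KIN2, cold- and drought-induced genes, fell from 11069, 12315 and 11024 to 5259, 5573 and 6931 (-0.96, SE 0.16, adjusted p = 0.00217). It stood at -0.17 in Col-0 and -0.52 in CsUBC13-OE without passing the test there, and its difference from Col-0 was -0.79 (SE 0.23, adjusted p = 0.723).

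Genes outside the lists, chosen after their values were seen, included further changes with known roles. PUB23, a U-box ubiquitin ligase of immune signalling, rose from 768, 768 and 696 to 2065, 2338 and 2373 (1.58, SE 0.21, adjusted p = 0.00026). OCT1, an organic cation transporter, rose from 77.2, 36.3 and 12.2 to 205, 177 and 187 (1.99, SE 0.45, adjusted p = 0.0192), and lost its call without any 1 ubc13A array other than replicate 1 with Fe, with an adjusted p of up to 0.0899. The peroxidase gene AT2G37130 fell from 4380, 2959 and 3134 to 1349, 1558 and 1293 (-1.29, SE 0.21), the copper amine oxidase gene AT3G43670 from 514, 312 and 442 to 161, 154 and 125 (-1.41, SE 0.22), and AT5G58330, a malate dehydrogenase gene, from 376, 395 and 369 to 144, 170 and 185 (-1.12, SE 0.13). CaS, a calcium sensor of chloroplast membranes, fell from 185, 204 and 254 to 46.6, 122 and 102 (-1.18, SE 0.23, adjusted p = 0.00725, or 0.145 with the 6 ubc13A arrays fitted alone).

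Some called genes lie next to each other in the TAIR10.1 annotation. Of 5841 pairs of neighbouring measured genes, 12 were called in 1 direction and 3 in opposite directions. Of all named genes taken singly, 1.75% were called higher and 1.38% lower. Whether neighbours were called together more often than other genes was not tested. CYP71B5 and AT3G53270 rose, as did SUFE2 and AT1G67800. AT5G49760, AT5G49770 and AT5G49780 fell by 0.79, 0.83 and 1.16 on the log2 scale. AT1G52790 fell beside AT1G52800 (-1.10, SE 0.28, adjusted p = 0.0405), from 33.6, 8.4 and 33.0 to 3.1, 1.3 and 2.3, and 13 of the 18 leave-one-out fits ended its call (adjusted p up to 0.153).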
